A study of Mus musculus with 16 samples.

Results

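The keratins described here are 9 genes, Krt7, Krt8, Krt18, Krt19, Krt20, Krt6a, Krt5, Krt14 and Krt72, out of 8251 genes that a probe set on the array names alone. They were taken as every probe set whose only gene symbol in the platform annotation was one of these names, which gave 12 of 12488 probe sets. The samples were laser-captured epithelial cells of mouse ileum, the final stretch of small bowel. Their RNA was amplified in 2 rounds and hybridised to oligonucleotide arrays of the MG_U74Av2 type. The 16 arrays were labelled carcinoma, an invasive tumour (n = 5), adenoma, a benign tumour (n = 5), and WT (n = 6). WT is the usual short form of wild type. The labels name no genotype or allele for the tumour arrays, and no strain, age or number of mice for any group. No label links an array to a mouse, so the p-values measure the spread between captured samples and are too small if arrays of a group shared a mouse.

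Keratins are the intermediate filament proteins of epithelial cells. Each filament is built from pairs of an acidic type I keratin and a basic type II keratin, and a keratin without a partner is unstable. Krt8 (type II) with Krt18 and Krt19 (type I) form the filaments of simple epithelia such as the gut lining. Krt20 (type I) is added as intestinal cells differentiate, and Krt7 (type II) is best known from ducts and glands. Krt5 (type II) and Krt14 (type I) belong to the basal layer of stratified epithelia, Krt6a (type II) to skin appendages and to wounded or stressed stratified epithelium, and Krt72 (type II) to the inner root sheath of the hair follicle.

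The promoters of Krt7, Krt18, Krt8 and Krt20 are shown because their test results differed. Krt7 rose in both tumours, Krt18 had a higher mean in both without passing the test, Krt8 showed no detectable difference, and Krt20 fell in carcinoma. Each window runs from 250 bases before to 50 bases after the annotated start (RefSeq, GRCm38.p6). Capitals mark matches on either strand to any of 4 motifs. The core promoter box was searched as TATAAA. The element of the AP-1 factors was searched as TGANTCA. The GC box, bound by Sp1, was searched as GGGCGG. The box bound by factors of the Klf family was searched as CACCC. The windows are chr15:101412153-101412452 on the plus strand for Krt7, chr15:102027966-102028265 on the plus strand for Krt18, chr15:102004293-102004592 on the minus strand for Krt8 and chr11:99438104-99438403 on the minus strand for Krt20.
Krt7: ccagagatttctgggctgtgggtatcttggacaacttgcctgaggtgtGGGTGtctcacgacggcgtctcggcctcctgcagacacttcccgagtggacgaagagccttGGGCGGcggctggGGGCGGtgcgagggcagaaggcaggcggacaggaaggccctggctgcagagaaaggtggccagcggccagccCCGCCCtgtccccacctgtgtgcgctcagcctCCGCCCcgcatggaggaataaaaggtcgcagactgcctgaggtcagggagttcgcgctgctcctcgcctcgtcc
Krt18: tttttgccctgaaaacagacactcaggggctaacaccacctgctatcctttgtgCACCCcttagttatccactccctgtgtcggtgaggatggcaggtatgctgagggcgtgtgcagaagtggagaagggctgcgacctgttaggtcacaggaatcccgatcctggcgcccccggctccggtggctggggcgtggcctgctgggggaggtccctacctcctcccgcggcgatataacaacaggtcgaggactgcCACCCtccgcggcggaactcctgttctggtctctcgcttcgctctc
Krt8: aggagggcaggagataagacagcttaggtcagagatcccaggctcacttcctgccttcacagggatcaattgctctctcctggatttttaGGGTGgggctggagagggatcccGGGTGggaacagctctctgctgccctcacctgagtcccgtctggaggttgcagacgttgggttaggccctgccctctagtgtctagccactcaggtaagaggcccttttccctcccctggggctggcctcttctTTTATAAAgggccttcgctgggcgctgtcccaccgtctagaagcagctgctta
Krt20: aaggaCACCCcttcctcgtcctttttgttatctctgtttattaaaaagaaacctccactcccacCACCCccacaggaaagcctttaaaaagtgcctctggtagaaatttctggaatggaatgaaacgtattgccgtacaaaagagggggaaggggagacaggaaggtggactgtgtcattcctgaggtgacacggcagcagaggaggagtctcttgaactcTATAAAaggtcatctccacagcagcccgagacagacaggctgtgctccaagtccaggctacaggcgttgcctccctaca
The Krt7 window held 4 GC boxes and 1 match to CACCC, and no TATAAA. The Krt18 window held 2 matches to CACCC only. The Krt8 window held 2 matches to CACCC and a TATAAA that is read on both strands, the 2 matches overlapping each other. These began at -3 and -1 from the annotated start. The Krt20 window held 2 matches to CACCC and 1 TATAAA, which began at -29. Matches to different motifs did not overlap. Over all 32851 promoter windows of this length, 13.6% held a TATAAA, 7.81% a TGANTCA, 35.7% a GGGCGG and 57.5% a CACCC. None of the 4 windows held TGANTCA. Windows were found for 7 of the 9 genes. Those of Krt5, Krt14 and Krt72 are not printed, and Krt19 and Krt6a had no entry. A match is a run of letters and not a measured site.

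Values are the deposited signals on a linear scale, in the authors' arbitrary units. For tests, signals under the 25th percentile of all values, 46.9, were raised to that floor and log2 was taken. Of the 12 keratin probe sets, 11 exceeded the floor on at least 5 of 16 arrays and were tested among 10563 probe sets, and the Krt14 probe set did not. Differences are on the log2 scale ± their standard error, from limma fitted to all 3 groups, with p-values adjusted over all 10563 probe sets. Because a probe set brighter than another need not mark a more abundant transcript, levels of single genes are compared between groups only within a probe set. The exceptions are within-array differences to Krt8 and summed signals of marker lists. A sum includes probe sets that were not tested, and its brightest probe sets weigh most.

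Against WT, 1 keratin probe set rose and 2 fell in carcinoma, while 3 rose and none fell in adenoma. In carcinoma these were Krt7, higher, and Krt20 and Krt72, lower. In adenoma they were Krt7 and both probe sets of Krt6a, all higher. Among all probe sets tested, 3.67% were called higher and 5.01% lower in carcinoma, and 3.53% higher and 4.24% lower in adenoma. Of the calls, 42.3% were higher in carcinoma and 45.4% in adenoma, which became 57.2% and 60.7% after quantile normalization and 71.7% and 72.7% with array medians aligned. Both comparisons use the same WT arrays, so they are not independent. Between carcinoma and adenoma no keratin passed the test, with 0.00947% of all probe sets called higher and 0.0284% lower. The median difference of the 11 keratin probe sets was -0.05 in carcinoma and 0.11 in adenoma against WT, beside medians of -0.17 and -0.18 over all probe sets. Between carcinoma and adenoma it was -0.19, beside 0.01.

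**Figure D1:**
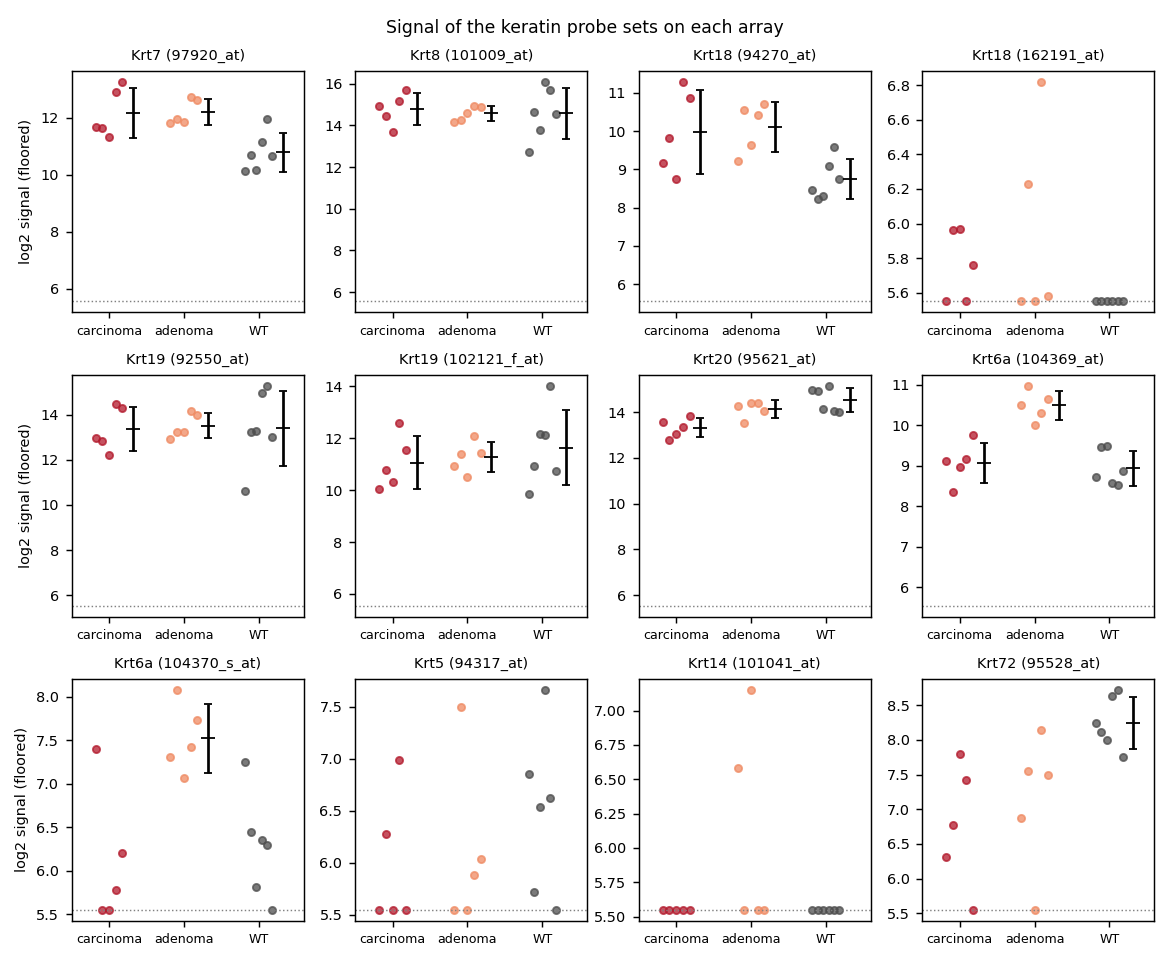
Log2 signal of each of the 12 keratin probe sets (y axis, floored) on the carcinoma, adenoma and WT arrays (x axis), 1 point per array, with the mean and SD as a bar where no array of the group lay at the floor. The dotted line is the floor at 5.55. Krt6a is highest in adenoma for both probe sets, Krt7 is higher in both tumours than on most WT arrays, and Krt20 is lowest in carcinoma.

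**Figure D2:**
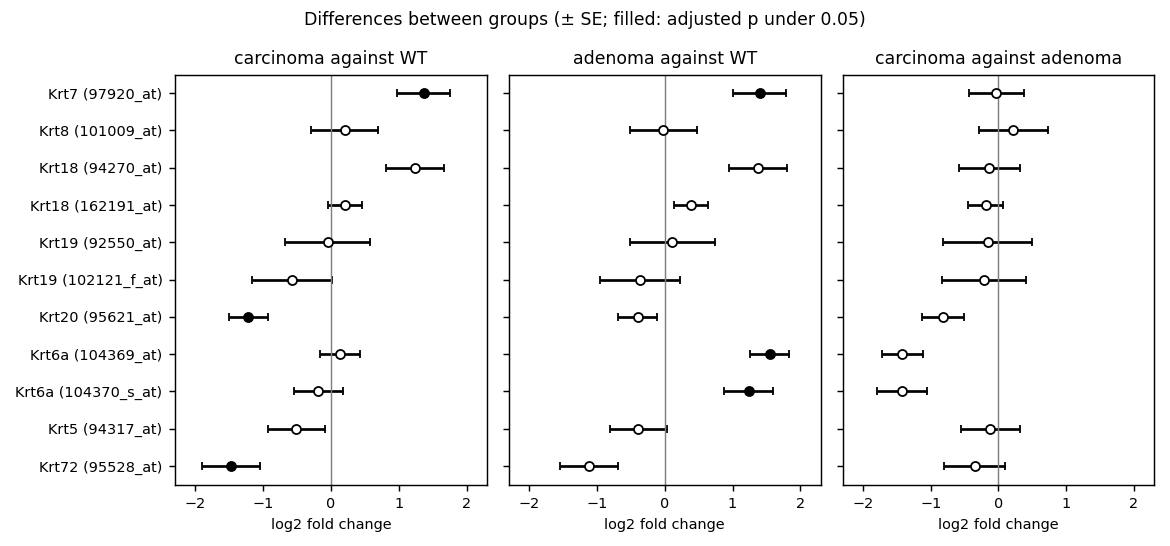
Log2 fold change (x axis) of the 11 keratin probe sets tested (y axis) in carcinoma against WT, adenoma against WT and carcinoma against adenoma. Points are fitted values with their standard error, filled where the adjusted p is under 0.05. Filled points are Krt7, Krt20 and Krt72 in carcinoma against WT and Krt7 and Krt6a in adenoma against WT, and the third panel has none.

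Krt7, a type II keratin of ducts and glands, was higher in both tumours. Its signals were 3275, 3189.5, 2560.4, 7677 and 9845 in carcinoma 1 to 5, and 3597, 3957, 3662, 6834.5 and 6396 in adenoma 1 to 5, against a lowest of 1127.5, a median of 1627 and a highest of 4024 on the 6 WT arrays. Every tumour array lay above all WT arrays but WT 5, which overlapped both tumour groups, and the next highest WT array, WT 4, was at 2258. Krt7 was 2.58-fold higher in carcinoma (1.37 ± 0.39, adjusted p = 0.0355, n = 5 and 6) and 2.64-fold higher in adenoma (1.40 ± 0.39, adjusted p = 0.0341, n = 5 and 6). The 2 tumour groups differed by -0.03 ± 0.41 (adjusted p = 1), with a 95% interval of -0.89 to 0.83.

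The Krt7 calls lay close to the threshold. Leaving out 1 array ended the call in carcinoma for WT 1, WT 2, WT 3, WT 6, carcinoma 4 or carcinoma 5 (1.09 to 1.35, adjusted p from 0.051 to 0.102), and in adenoma for WT 1, WT 2, WT 3, adenoma 2, adenoma 4 or adenoma 5 (1.27 to 1.46, adjusted p from 0.0533 to 0.0966). Quantile normalization also ended both calls, at 1.31 (adjusted p = 0.0616) and 1.31 (adjusted p = 0.0651), as did a floor at the 10th percentile or no filter, with the fold change as before and adjusted p from 0.0536 to 0.0569. The carcinoma call was further lost in a fit of only the 2 groups compared (1.37 ± 0.42, adjusted p = 0.0714). In all, the call was lost in 12 of 30 alternatives in carcinoma and 11 of 30 in adenoma. With array medians aligned both calls held, at 1.69 (adjusted p = 0.00574) and 1.70 (adjusted p = 0.00611).

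Array quality measures differed along with these groups. Control transcripts added at hybridisation (spike-in) had a mean log2 signal of 12.23 ± 0.50 in carcinoma (SD, n = 5) and 12.24 ± 0.82 in adenoma (SD, n = 5), against 13.74 ± 1 in WT (SD, n = 6), with exact permutation p = 0.0238 and 0.0325, both 0.0487 when adjusted over the 3 group pairs. For Gapdh, the log2 signal of the 3' probe set minus that of the 5' probe set, a control of RNA length, was 5.70 ± 0.58 in carcinoma and 5.82 ± 0.24 in adenoma, against 4.52 ± 0.39 in WT (exact permutation p = 0.00433 and 0.00216, adjusted 0.00649 for both). With that ratio as a covariate no keratin was called in any comparison, and Krt7 was higher by 0.65 ± 0.62 in carcinoma (adjusted p = 0.747) and 0.61 ± 0.66 in adenoma (adjusted p = 0.81). The ratio was higher on every adenoma array than on every WT array, so for adenoma against WT the ratio and the group cannot be told apart. With spike-in signal as a covariate, Krt7 was higher by 2.05 in carcinoma and 2.08 in adenoma and passed in both. Without WT 1, WT 2, WT 4 and WT 5, which exceeded all tumour arrays in spike-in signal, it was higher by 1.75 ± 0.51 (adjusted p = 0.0972) and 1.79 ± 0.51 (adjusted p = 0.0925).

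Krt8 showed no difference beyond its spread in either tumour. Krt8, the main type II keratin of the gut lining, had signals of 31165, 22549, 13349.5, 36845 and 52787 in carcinoma 1 to 5 and of 18254, 19745, 24396, 31644 and 30482 in adenoma 1 to 5, against a lowest of 6864, a median of 24603 and a highest of 70346 in WT. The WT arrays enclosed every tumour array, with WT 1 lowest and WT 4 highest, a spread of 10.25-fold. The difference was 0.20 ± 0.49 in carcinoma (adjusted p = 0.833, 95% interval -0.81 to 1.22) and -0.02 ± 0.49 in adenoma (adjusted p = 0.989, interval -1.03 to 1).

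Krt18, the type I partner of Krt8, was read by 2 probe sets. The brighter one gave 571, 900.7, 429.6, 2507 and 1859.7 in carcinoma 1 to 5, and 596.8, 1512, 792.9, 1382 and 1680.2 in adenoma 1 to 5, against a lowest of 298.5, a median of 391 and a highest of 770.6 in WT. Carcinoma 2, 4 and 5 and adenoma 2 to 5 lay above all WT arrays, while carcinoma 1, carcinoma 3 and adenoma 1 lay within the WT range. The difference was 1.24 ± 0.43 in carcinoma (adjusted p = 0.0832) and 1.38 ± 0.43 in adenoma (adjusted p = 0.0578), and neither passed. Both passed with array medians aligned (1.56, adjusted p = 0.0179, and 1.67, adjusted p = 0.013). Both also passed with spike-in signal as a covariate (1.90, adjusted p = 0.0456, and 2.03, adjusted p = 0.0301), while the Gapdh ratio as a covariate gave 0.54 ± 0.69 (adjusted p = 0.816) and 0.60 ± 0.73 (adjusted p = 0.836). The adenoma difference passed in 12 of 30 alternatives and the carcinoma difference in 4. The dimmer Krt18 probe set did not exceed the floor on any of 6 WT arrays, was above it on 3 carcinoma and 3 adenoma arrays, and did not pass in either comparison (adjusted p = 0.645 and 0.365).

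Krt19, a type I keratin that lacks the usual tail domain, varied more between WT arrays than between groups. Its brighter probe set gave 7853, 7281, 4810, 22385 and 19918 in carcinoma 1 to 5, and 7753.5, 9559, 9654, 18313 and 16338 in adenoma 1 to 5, against a lowest of 1580, a median of 9799 and a highest of 39601 in WT. The WT range spanned 25.06-fold, from WT 1 to WT 5, and held every tumour array. The difference was -0.05 ± 0.63 in carcinoma (95% interval -1.37 to 1.28, adjusted p = 0.975) and 0.11 ± 0.63 in adenoma (interval -1.21 to 1.44, adjusted p = 0.932). The dimmer one, whose identifier marks probes that can match several transcripts, differed by -0.58 ± 0.59 in carcinoma and -0.37 ± 0.59 in adenoma (adjusted p = 0.583 and 0.747). In none of these comparisons was a difference detectable at this spread.

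**Figure D3:**
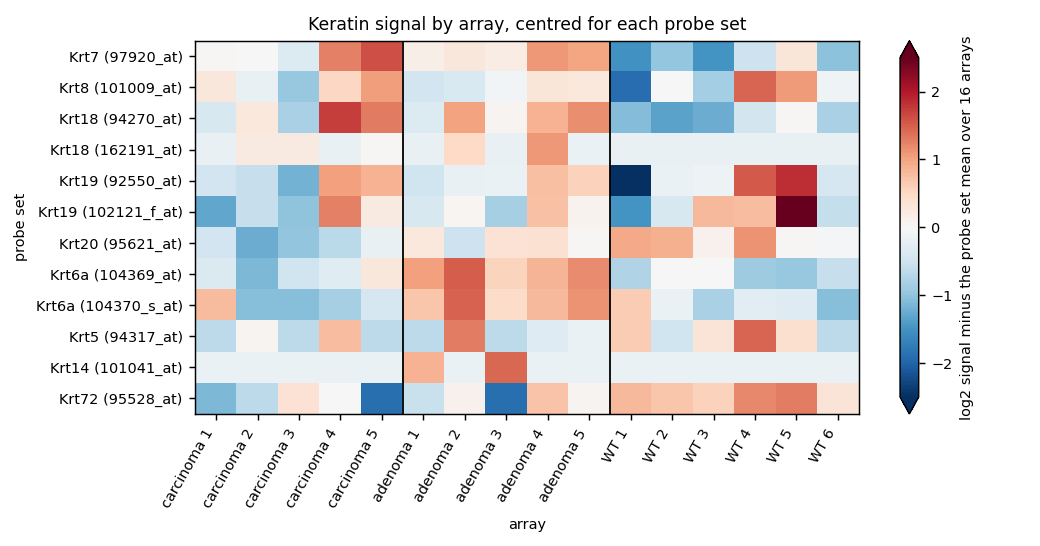
Log2 signal of each keratin probe set (rows), centred on its own mean over the 16 arrays, for each array (columns, with lines between carcinoma, adenoma and WT). Krt7, Krt8, Krt18 and Krt19 are high together on carcinoma 4 and carcinoma 5 and low together on carcinoma 3, and Krt8 and Krt19 are high on WT 4 and WT 5 and lowest on WT 1.

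The 4 keratins of simple epithelia tended to be high on the same arrays of a group, and on the same replicate numbers in all groups. In carcinoma, the brighter probe sets of Krt7, Krt8, Krt18 and Krt19 were all lowest on carcinoma 3 and highest on carcinoma 4 or carcinoma 5. In adenoma all 4 were lowest on adenoma 1, and 3 of them were highest on adenoma 4, with Krt18 highest on adenoma 5. In WT, Krt7, Krt8 and Krt19 were lowest on WT 1, and Krt18 was lowest on WT 2. Across groups, the highest signals of these probe sets fell on the arrays numbered 4 and 5. The exception was Krt18 in adenoma, where adenoma 2 came between adenoma 5 and adenoma 4. Krt19 gave 31759 on WT 4 and 39601 on WT 5. The labels do not say what the replicate number stands for. The spike-in signal of WT 1 to WT 6 was 14.33, 14.59, 12.61, 13.74, 14.73 and 12.44. Its part in the spread of Krt8 among WT arrays was not tested.

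Taken relative to Krt8 on the same array, the mean of Krt7 and of Krt18 lay above the WT mean in both tumours. The ranges of both tumours overlapped that of WT for Krt7, Krt18 and Krt19 alike. Krt7 minus Krt8 ran from -3.25 to -2.26 in carcinoma and from -2.74 to -2.21 in adenoma, against -4.96 to -2.61 in WT, with means 1.16 and 1.42 above the WT mean. The spread of this difference among carcinoma arrays (SD 0.41) was smaller than that of Krt7 itself (SD 0.86), and likewise in adenoma (0.21 against 0.46). In WT the spread of the difference was not smaller (0.75 against 0.69). WT 1, where Krt8 was lowest, gave the highest WT value. Krt18 minus Krt8 ran from -5.77 to -3.88 in carcinoma and from -4.94 to -3.71 in adenoma, against -7.01 to -4.27 in WT, with means 1.03 and 1.39 above the WT mean. Krt19 minus Krt8 averaged -1.44 ± 0.46 in carcinoma (SD, n = 5) and -1.06 ± 0.23 in adenoma (SD, n = 5), against -1.19 ± 0.64 in WT (SD, n = 6), and the WT range held every tumour array. These differences are between probe sets, so only their shifts between groups can be read. They were not tested.

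**Figure D4:**
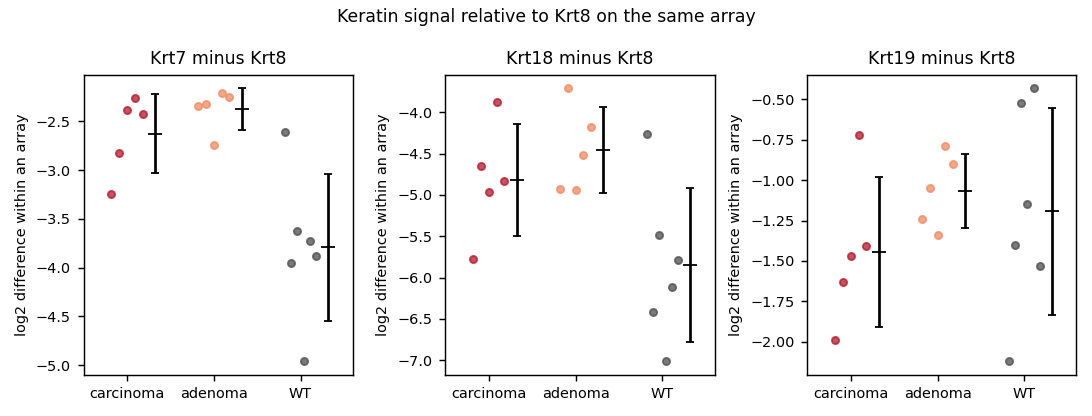
Within-array log2 difference (y axis) between the signal of Krt7, Krt18 or Krt19 (brighter probe set) and that of Krt8, on carcinoma, adenoma and WT arrays (x axis), 1 point per array with mean and SD. For Krt7 minus Krt8 every WT array but WT 1 lies below all tumour arrays, while for Krt18 minus Krt8 and Krt19 minus Krt8 the 3 groups overlap.

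Krt20, the type I keratin of differentiated intestinal cells, fell in carcinoma. Its signals were 11969.5, 7017, 8425, 10546 and 14700.5 in carcinoma 1 to 5, and 19995, 11699, 21621, 21720.3 and 17046 in adenoma 1 to 5, against a lowest of 16404, a median of 24475 and a highest of 36313 in WT. All 5 carcinoma arrays lay below all 6 WT arrays, and in adenoma only adenoma 2 did. Krt20 was 2.33-fold lower in carcinoma (-1.22 ± 0.29, adjusted p = 0.0128), whereas adenoma differed by -0.40 ± 0.29 (adjusted p = 0.429, 95% interval -1.02 to 0.21). Between carcinoma and adenoma the difference was -0.82 ± 0.31 (unadjusted p = 0.0152, adjusted p = 1), so a lower level in carcinoma than in adenoma was not shown. In these captured samples, fewer differentiated cells and less Krt20 RNA per cell cannot be told apart.

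The Krt20 call in carcinoma held when any 1 array was left out (-1.35 to -1.09, highest adjusted p = 0.0428) and after quantile normalization (-1.09, adjusted p = 0.0205). It was lost with array medians aligned (-0.90 ± 0.29, adjusted p = 0.057), with spike-in signal as a covariate (-0.97 ± 0.37, adjusted p = 0.177), with the Gapdh ratio as a covariate (-0.92 ± 0.48, adjusted p = 0.484) and without those 4 WT arrays of highest spike-in signal (-0.76 ± 0.34, adjusted p = 0.369).

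Other markers of intestinal epithelium had a lower summed signal in both tumours. Of 9 listed (Epcam, Vil1, Cdh1, Cdh17, Fabp2, Fabp6, Cdx1, Cdx2 and Lgals4), 8 had a probe set and were tested, and none lay at the floor on every array. Among these 8, only Fabp2, a fatty acid-binding protein of absorptive cells, passed, being 10.8-fold lower in carcinoma (-3.43 ± 0.63, adjusted p = 0.00149) and 4.47-fold lower in adenoma (-2.16 ± 0.63, adjusted p = 0.0422). Among all probe sets tested, 5.01% were called lower in carcinoma and 4.24% in adenoma. The median difference of the 8 was -0.71 in carcinoma and -0.81 in adenoma, beside -0.17 and -0.18 over all probe sets. Their summed signal ran from 30656 to 39693 in carcinoma and from 33106 to 45734 in adenoma, against 56660 to 93931 in WT. Lgals4, the brightest of the 8, differed by -0.74 ± 0.26 in carcinoma and -0.66 ± 0.26 in adenoma and did not pass (adjusted p = 0.0873 and 0.137). Epcam and Cdh1, which mark epithelium whatever its stage, differed by -0.10 ± 0.24 and -0.26 ± 0.23 in carcinoma and did not pass (adjusted p = 0.835 and 0.524). In adenoma they differed by -0.23 ± 0.24 and -0.38 ± 0.23 and did not pass either (adjusted p = 0.59 and 0.344). The part of the lower summed signal in the Krt20 result was not tested.

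Krt6a, a type II keratin of stressed stratified epithelium, rose in adenoma, and in carcinoma it did not pass the test. The brighter probe set gave 553.1, 324.9, 501.4, 571.9 and 860.8 in carcinoma 1 to 5, and 1440, 2001, 1032, 1267 and 1612 in adenoma 1 to 5, against a lowest of 366.4, a median of 444.8 and a highest of 713.9 in WT. All 5 adenoma arrays lay above every WT array and every carcinoma array, while carcinoma and WT overlapped. Krt6a was 2.93-fold higher in adenoma than in WT (1.55 ± 0.29, adjusted p = 0.00187), and carcinoma differed from WT by 0.13 ± 0.29 (adjusted p = 0.82, 95% interval -0.47 to 0.73). Between carcinoma and adenoma the difference was -1.42 ± 0.30, with an unadjusted p of 0.000149 and an adjusted p of 0.173, so it did not pass over all probe sets. It passed in a single alternative, with array weights (-1.58 ± 0.26, adjusted p = 0.0107).

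The dimmer Krt6a probe set, whose identifier marks probes shared by similar transcripts, also rose in adenoma. It read 168.8, 33, 38.7, 54.8 and 73.7 in carcinoma 1 to 5, and 159, 269.9, 134.8, 171 and 211.6 in adenoma 1 to 5, against a lowest of 41.5, a median of 80.1 and a highest of 152.7 in WT. Carcinoma 1 lay within the adenoma range and the other 4 carcinoma arrays below it, and adenoma 3 lay below WT 1. This probe set was 2.36-fold higher in adenoma than in WT (1.24 ± 0.36, adjusted p = 0.0389), and carcinoma differed from adenoma by -1.42 ± 0.37 (adjusted p = 0.455). The probe set of Krt6b, a near-identical copy of Krt6a, differed by -0.78 ± 0.41 in carcinoma and -0.82 ± 0.41 in adenoma against WT (adjusted p = 0.261 and 0.238), and neither passed.

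The rise of the brighter Krt6a probe set in adenoma held in 28 of 30 alternatives, including each array left out in turn (1.43 to 1.67, highest adjusted p = 0.00813). It was lost with the Gapdh ratio as a covariate (1.60 ± 0.51, adjusted p = 0.209) and without those 4 WT arrays of highest spike-in signal (1.31 ± 0.37, adjusted p = 0.097). The call for the dimmer one was lost in 15 of 29, among them leaving out WT 2, WT 3, WT 4, WT 5, WT 6, adenoma 1, adenoma 2, adenoma 4 or adenoma 5 (1.09 to 1.29, adjusted p from 0.0505 to 0.103). A floor at the 40th percentile gave 0.63 (adjusted p = 0.0641).

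The summed signal of 4 endothelium markers (Pecam1, Cdh5, Kdr and Tek) was highest in adenoma. It ran from 928 to 1153 in carcinoma and from 1360 to 2207 in adenoma, against 560 to 1322 in WT, so every adenoma array lay above all others. Cdh5, the cadherin of endothelial junctions, was 4.5-fold higher in adenoma than in WT (2.17 ± 0.32, adjusted p = 0.000232), and carcinoma differed from adenoma by -1.41 ± 0.33 (adjusted p = 0.286). The other 3 did not pass in adenoma against WT, at 0.80 for Kdr, 0.79 for Tek and -0.55 for Pecam1. None of the 4 passed in carcinoma against WT. Over all probe sets tested, 3.53% were called higher in adenoma and 3.67% in carcinoma. Between carcinoma and adenoma, Kdr, Tek and Pecam1 differed by 0.41, 0.17 and 0.11 and did not pass. Among the 4, only Cdh5 was lower in carcinoma than in adenoma. None of the 4 lay at the floor on every array. The part of endothelial RNA in the Krt6a result was not tested.

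Other genes of stratified epithelium, are given beside Krt6a. Of 28 listed, 22 had a probe set and 19 were tested. In adenoma 4 rose and none fell, with a list median of -0.13. Among all probe sets tested, 3.53% were called higher and 4.24% lower in adenoma, and 3.67% and 5.01% in carcinoma. The 4 are named next. In adenoma these were Anxa8, an annexin (3.78 ± 0.34), Sprr2f (2.46 ± 0.64) and Sprr2b (1.47 ± 0.29), precursors of the cornified envelope, and Cstb, a cysteine protease inhibitor (0.76 ± 0.22), with adjusted p of 7.94e-07, 0.0218, 0.00307 and 0.0392. The probe sets of Sprr2f and Sprr2b can match other Sprr2 genes. In carcinoma 1 rose, Anxa8 (3.96 ± 0.34, adjusted p = 3.49e-07), and none fell, with a median of -0.19. Sprr2f differed from WT by 0 ± 0.64 in carcinoma (adjusted p = 0.998) and Sprr2b by 0.81 ± 0.29 (adjusted p = 0.0921). Trp63, the master transcription factor of stratified epithelium, differed by -0.30 ± 0.42 in carcinoma (adjusted p = 0.694) and by -0.88 ± 0.42 in adenoma (adjusted p = 0.218), where Krt6a was higher.

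Krt5 and Krt14, the basal pair of stratified epithelium, were at or near the floor. Krt5 read 19.1, 77.7, 22.2, 127.2 and 20.7 in carcinoma 1 to 5, and 26.5, 181, 29.4, 59 and 66 in adenoma 1 to 5, against a lowest of 24.5, a median of 95.8 and a highest of 202.4 in WT. It exceeded the floor on 2 carcinoma, 3 adenoma and 5 WT arrays, and the groups overlapped throughout. The difference was -0.51 ± 0.42 in carcinoma and -0.39 ± 0.42 in adenoma (adjusted p = 0.487 and 0.607). Krt14 exceeded the floor on 0 carcinoma, 3 adenoma and 0 WT arrays, at 95.5 in adenoma 1, 141.8 in adenoma 3 and, barely, 47 in adenoma 4, and was not tested. Its partner Krt5 was under the floor in adenoma 1 and adenoma 3 and above it, at 59, in adenoma 4.

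Krt72, a type II keratin of the hair follicle, fell in carcinoma. It gave 79.6, 108.8, 221.4, 171.8 and 25.7 in carcinoma 1 to 5, and 116.6, 187.9, 39.7, 283.8 and 180.9 in adenoma 1 to 5, against a lowest of 215.2, a median of 290.4 and a highest of 420.4 in WT. Only carcinoma 3 and adenoma 4 reached into the WT range, and carcinoma 5 and adenoma 3 lay under the floor. The difference was -1.48 ± 0.43 in carcinoma (2.78-fold lower, adjusted p = 0.0384) and -1.12 ± 0.43 in adenoma (adjusted p = 0.125). The 25th percentile of an array's signals, which bears on probe sets this dim, ran from 24.4 to 50.6 in carcinoma and from 33.6 to 53.6 in adenoma, against 45.4 to 72.9 in WT.

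The Krt72 call was lost in 16 of 30 alternatives. Among them were quantile normalization (-1.16, adjusted p = 0.0854) and aligned array medians (-1.14, adjusted p = 0.0969), and leaving out WT 1, WT 2, WT 3, WT 4, WT 5, carcinoma 1, carcinoma 2 or carcinoma 5 (-1.52 to -1.17, adjusted p from 0.0506 to 0.101). The spike-in signal as a covariate gave -0.93 ± 0.54 (adjusted p = 0.422) and the Gapdh ratio -0.97 ± 0.70 (adjusted p = 0.654).

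**Figure D5:**
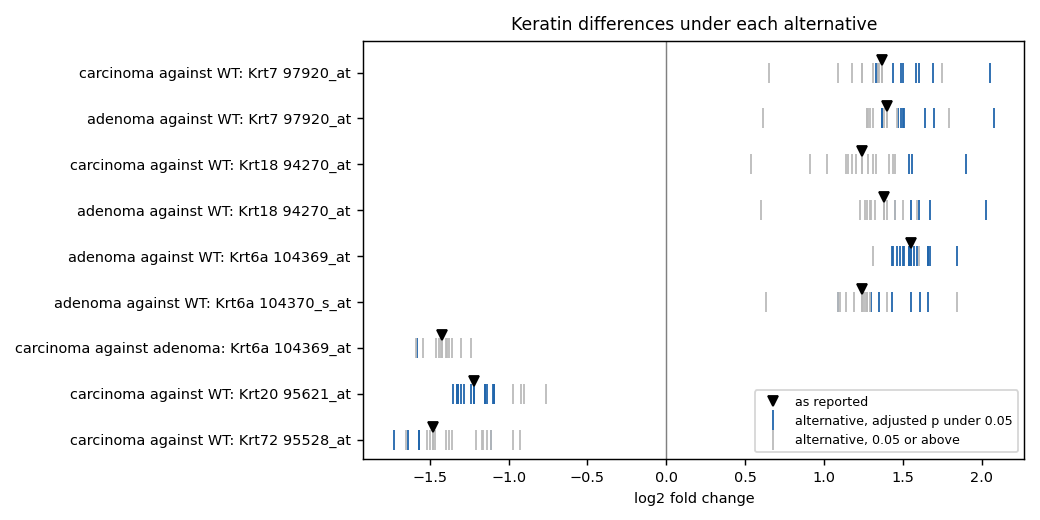
Log2 fold change (x axis) of the keratin differences discussed (y axis) as reported (triangles), and under each alternative (bars, blue where the adjusted p is under 0.05 and grey otherwise). In these 9 differences every alternative keeps the sign. The brighter Krt6a probe set in adenoma against WT and Krt20 in carcinoma against WT are blue in most alternatives, whereas Krt72 is grey in 16 of 30.

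Other keratins on the array, most of them keratins of skin and hair, gave no call. Of 24 such genes, 20 were tested and none passed with limma in any comparison. Their medians were -0.51 in carcinoma and -0.37 in adenoma against WT, beside -0.17 and -0.18 over all probe sets. Among all probe sets tested, 3.67% were called higher and 5.01% lower in carcinoma, and 3.53% and 4.24% in adenoma. Between carcinoma and adenoma the shares were 0.00947% and 0.0284%. With shares this small, the lack of a call does not set these 20 genes apart. Of 15 other intermediate filament genes, 11 were tested. Lmna, which encodes the lamins A and C of the nuclear envelope, rose in carcinoma (1.40 ± 0.27, adjusted p = 0.00257) and in adenoma (1.63 ± 0.27, adjusted p = 0.000778). Bfsp1, a lens filament protein, fell in carcinoma (-1.28 ± 0.31, adjusted p = 0.0121) and in adenoma (-1.52 ± 0.31, adjusted p = 0.00365). Vim, the vimentin of mesenchymal cells, differed by -0.58 ± 0.46 in carcinoma and -0.08 ± 0.46 in adenoma (adjusted p = 0.471 and 0.931).

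Genes of the desmosomes and hemidesmosomes, which anchor keratin filaments at the membrane, and of the plakin linkers had a median of 0.66 in both tumours against WT, beside -0.17 and -0.18 over all probe sets. Of 22 listed, 15 were tested, of which 2 rose in carcinoma, 1 rose in adenoma and none fell. The shares called higher over all probe sets were 3.67% in carcinoma and 3.53% in adenoma. Macf1, a plakin that links actin and microtubules, rose in carcinoma (1.18 ± 0.26, adjusted p = 0.00743) and in adenoma (1.10 ± 0.26, adjusted p = 0.0131). Itga6, a laminin-binding integrin chain of hemidesmosomes, rose in carcinoma (1 ± 0.30, adjusted p = 0.041). Dsp, the desmoplakin that binds keratin filaments, differed by 0.73 ± 0.26 in carcinoma and did not pass (adjusted p = 0.0873).

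Mesothelial cells, which cover the outer gut wall, carry Krt7, Krt8, Krt18 and Krt19 as well. Of 5 mesothelium markers, 3 had a probe set (Msln, Upk3b and Wt1) and 2 were tested, and none passed. Their summed signal ran from 266 to 484 in carcinoma and from 185 to 612 in adenoma, against 358 to 601 in WT, so the groups overlapped. The part of such cells in the Krt7 result was not tested. Fibroblast markers, which bear on captured stroma, rose in carcinoma in 3 of 7 (Col1a1, Col1a2 and Dcn, by 1.08 to 1.79) and in adenoma in none, and their summed signal ran from 8819 to 17405 in carcinoma and from 6854 to 10087 in adenoma, against 3468 to 8883 in WT. Their part in the lower Krt20 of carcinoma was not tested. Smooth muscle markers fell in 2 of 5 in each tumour, with a summed signal of 634 to 1776 in carcinoma and 776 to 2417 in adenoma, against 2012 to 4489 in WT. Of 7 leukocyte markers tested, 1 fell in adenoma and none in carcinoma, with a summed signal of 2313 to 5472 in carcinoma and 2249 to 3829 in adenoma, against 1909 to 3110 in WT. Beside these counts, 3.67% of all probe sets were called higher and 5.01% lower in carcinoma, and 3.53% and 4.24% in adenoma.

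For each keratin probe set that passed in any comparison, the genes with the most similar profile were found by the mean absolute difference of centred log2 signals over the 16 arrays, among 7458 genes. Krt7 was most like Anxa2, an annexin, at 0.27, then Eif2d at 0.29 and Tnk2 at 0.30, where the median gene stood at 0.90. Anxa2 was higher by 1.72 in carcinoma and 1.73 in adenoma. The brighter Krt6a probe set was most like Mt4, a metallothionein of stratified epithelium, at 0.37, then Gpr182 at 0.39 and Pitx1 at 0.40 (median 0.83). Mt4 was higher by 1.63 in adenoma and 0.81 in carcinoma. The dimmer one was most like Sox17, a transcription factor of endoderm and endothelium, at 0.35, then P4ha1 at 0.44 and Mt4 at 0.48 (median 0.88). Krt20 was most like Emid1 at 0.29, Cideb, a lipid droplet protein, at 0.29 and Sema6c at 0.31 (median 0.67), with Cideb lower by -1.42 in carcinoma and -0.63 in adenoma. Krt72 was most like Tubb4b at 0.33, Denn2b at 0.34 and Cdk11b at 0.36 (median 0.82). These values describe likeness and were not tested.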

How the data were processed

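The authors deposited a linear intensity for each of 12488 probe sets on each array, made with software that the labels do not name. Per the labels, laser-captured cells were used and RNA was amplified in 2 rounds. Trimmed by 2% at either end, array means were 500.3 to 500.4, so the arrays were taken as scaled by the authors and used as they stand. Array medians lay between 126.8 and 234.2, and the number of arrays limits the precision.

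Values were floored at the 25th percentile (46.9, or 5.55 on the log2 scale) and log2 was taken, which understates folds near the floor. The 66 control probe sets were left out, and a probe set was tested if 5 or more of 16 arrays exceeded the floor, which left 10563. Groups came from the sample titles, and limma 3.58.1 (R 4.3.3) fitted all 3 at once (13 residual degrees of freedom), two-sided, with Benjamini-Hochberg adjustment at 0.05. Each probe set was tested on its own, and listed genes were read through their brightest probe set. Up to 6 genes per list with the smallest p among those past the threshold, every keratin probe set and 3 most similar genes per called keratin were named. Krt6b, Trp63, Vim, Dsp, Epcam, Cdh1 and the cell type markers named were chosen after their values were seen. Control measures were compared by two-sided exact permutation tests. The fit was tested on simulated data. The members, lists and tests were chosen with earlier results of these data known. No 2 arrays held the same values. Figures used matplotlib 3.10.9 in Python 3.11.15.

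Same-numbered arrays were not treated as pairs. The alternatives were 2 scalings, 2 floors, 2 filters, 1 probe set per gene, the replicate block, array weights, a variance trend, only the 2 groups compared, 2 covariates, the 4 WT arrays highest in spike-in signal left out and each array left out in turn.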

Additional observations from a re-analysis of the deposited data

Results flagged for a closer look

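Krt5 in adenoma held a single array far from the rest of its group. Adenoma 2 gave a signal of 181, against 26.5, 29.4, 59 and 66 on the other 4 adenoma arrays, and its gap to the nearest of them was 0.747 of the range of the group on the floored log2 scale, where 2 of those arrays lay at the floor. Of 33 groups of keratin signals examined in this way, 1 stood out, and chance alone gives about 1 in 20.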

How the results depend on the processing

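Of 972 values of single keratin differences under 30 alternatives, 837 kept their direction and their side of the threshold, 60 lost a call, 18 gained one and 57 changed sign. No called difference changed sign. The number of probe sets called in carcinoma against WT (917) became 145 with the Gapdh ratio in the fit, 458 with spike-in signal in the fit and 278 on leaving out the 4 WT arrays highest in spike-in signal. In adenoma against WT (821) the same settings gave 97, 463 and 259, and leaving out 1 array gave 519 (without adenoma 5) to 968. In carcinoma against adenoma (4) the count was 2 with a floor at the 10th percentile, 7 at the 40th, 2 with 1 probe set per gene, 28 with array weights, 2 with only the groups compared, 10 without those WT arrays and 4 to 7 with 1 array left out (7 without WT 2). Keratin probe sets called in carcinoma (3) were 1 after quantile normalization, 1 with a floor at the 10th percentile, 1 with no filter, 0 with the Gapdh ratio and 0 without those WT arrays, and 1 to 4 with 1 array left out (1 without WT 1, WT 2, WT 3 or carcinoma 5). In adenoma (3) they were 1 with a floor at the 10th percentile, 1 with no filter, 0 with the Gapdh ratio and 0 without those WT arrays, and 1 to 4 with 1 array left out (1 without WT 2, WT 3, adenoma 2, adenoma 4 or adenoma 5). Between carcinoma and adenoma array weights gave 2 in place of 0. The causes were not tested. The median of all probe sets against WT was -0.17 in carcinoma and -0.18 in adenoma, -0.02 and -0.04 after quantile normalization, and 0.10 and 0.07 with array medians aligned.

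Sign changes touched only uncalled differences. In carcinoma against WT, Krt8 became -0.87 with the Gapdh ratio. Krt19 (brighter probe set) became 0.27 with medians aligned, 0.54 with the spike-in signal and 0.21 without the high spike-in WT arrays, and Krt19 (dimmer probe set) 0.24 with the spike-in signal. Krt6a (brighter probe set) became -0.14 with array weights and -0.11 without the high spike-in WT arrays, and Krt6a (dimmer probe set) 0.15 by quantile normalization, 0.10 with medians aligned, 0.04 with the higher floor, 0.24 with the spike-in signal and 0.42 without the high spike-in WT arrays. In adenoma against WT, Krt8 became 0.28 by quantile normalization, 0.28 with medians aligned, 0.16 with array weights, 0.43 with the spike-in signal and 0.41 without the high spike-in WT arrays. Krt19 (brighter probe set) became -1.10 with the Gapdh ratio, Krt19 (dimmer probe set) 0.45 with the spike-in signal, Krt20 0.06 without the high spike-in WT arrays, and Krt5 0.05 with the spike-in signal and 0.06 without those arrays. In carcinoma against adenoma, Krt7 became 0.04 with the Gapdh ratio, and with array weights Krt18 (dimmer probe set) became 0.06, Krt5 0.03 and Krt72 0.04. With 1 array left out, carcinoma against WT ran from -0.16 to 0.51 for Krt8, -0.60 to 0.33 for Krt19 (brighter probe set), -0.04 to 0.31 for Krt6a (brighter probe set) and -0.51 to 0.01 for Krt6a (dimmer probe set). Adenoma against WT ran from -0.39 to 0.29 for Krt8, -0.44 to 0.49 for Krt19 (brighter probe set) and -0.72 to 0.11 for Krt19 (dimmer probe set). Carcinoma against adenoma ran from -0.31 to 0.18 for Krt7, 0 to 0.49 for Krt8, -0.47 to 0.17 for Krt18 (brighter probe set), -0.28 to 0.03 for Krt18 (dimmer probe set), -0.44 to 0.12 for Krt19 (brighter probe set), -0.59 to 0.04 for Krt19 (dimmer probe set) and -0.37 to 0.23 for Krt5.

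Over all probe sets tested, same-numbered arrays correlated at -0.02 to 0.36 between carcinoma and WT and -0.25 to 0.19 between adenoma and WT. Between carcinoma and adenoma they correlated at -0.19 to 0.27. The labels name no pairing, and the numbers were not taken to pair samples. The brighter probe sets of Krt7, Krt8, Krt18 and Krt19 did follow the number, being high on arrays 4 and 5 of each group. With the replicate number as a block, 1181, 1050 and 5 probe sets were called in carcinoma against WT, adenoma against WT and carcinoma against adenoma, of which 4, 4 and 0 were keratins. The block added the brighter Krt18 probe set in carcinoma (1.24 ± 0.31, adjusted p = 0.0221) and in adenoma (1.38 ± 0.31, adjusted p = 0.0143). It narrowed the standard error of Krt7 against WT from 0.39 to 0.25. Krt7 was then higher by 1.34 in carcinoma (adjusted p = 0.00412) and 1.37 in adenoma (adjusted p = 0.00423). The error of the brighter Krt19 probe set went from 0.63 to 0.45, and that of the brighter Krt6a probe set rose from 0.29 to 0.33.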
